A study of Mus musculus with 6 samples.

Results

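The genes described here encode 7 intermediate filament proteins of neurons and of the progenitors that give rise to them: Nefl, Nefm, Nefh, Prph, Ina, Nes and Vim. They were taken by name from an expression table of 24264 genes, and all 7 were found. Intermediate filaments are rope-like polymers that give cells and axons mechanical strength, and each tissue uses its own set. Progenitors and glia assemble vimentin and nestin. As neurons mature they turn to internexin alpha (Ina), peripherin (Prph) and the neurofilament triplet of light (Nefl), medium (Nefm) and heavy (Nefh) chains, whose abundance sets the calibre of large axons. Peripherin is known for its place in peripheral neurons, above all small sensory ones.

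Sequencing of poly(A) RNA was used to measure messages in lumbar dorsal root ganglia of mouse embryos at E12.5, where sensory neurons have their cell bodies. There were 3 control and 3 miR-CKO libraries, all on a mixed C57/Bl6 x 129/SvEv background. The miR-CKO embryos carried Wnt1-Cre and were homozygous for the allele miR-183-96-182-flox. Cre under the Wnt1 promoter deletes these microRNA genes in the neural crest lineage, the source of sensory neurons and their glia, and ganglia also hold cells of other origin. Controls 1 and 3 were titled Wnt-Cre and control 2 WT. The sources used here do not say whether a control carried a floxed allele or whether a library pooled embryos, and p-values measure the spread between libraries. The comparison asks whether filament messages differ once these microRNAs are lost.

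The 3 deleted microRNAs are shown because some filament messages carry matches to their seeds. These are the mature sequences of RefSeq (GRCm38.p6), 5′ to 3′, with the seed, bases 2 to 8, in capitals. They lie on the minus strand of chromosome 6, at chr6:30169711-30169732 for miR-183, chr6:30169506-30169528 for miR-96 and chr6:30165962-30165986 for miR-182.
miR-183: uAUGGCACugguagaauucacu
miR-96: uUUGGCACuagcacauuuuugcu
miR-182: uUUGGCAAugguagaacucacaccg
No 2 of the 3 seeds are the same over all these bases. Those of miR-183 and miR-96 differ only in their first base, and those of miR-96 and miR-182 only in their last.

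Sites were searched in the sense strand of the 3 prime UTR of each gene's main transcript in GENCODE M21 (mm10). A site is the 8mer GTGCCATA of miR-183, GTGCCAAA of miR-96 or TTGCCAAA of miR-182, or the first or last 7 bases of one of these. TGCCAAA is shared by miR-96 and miR-182. Of the 7 filament genes, 3 held a site, at 1 position each. These are shown with the match in capitals and up to 11 bases on each side, because they are the places where the deleted microRNAs could pair with a filament message.
Nefl, miR-183 8mer: ttcaatcctgtGTGCCATAataaaatattg
Nefm, miR-182 7mer: tgaagtacctgTTGCCAAgagctagctgt
Ina, miR-96 8mer: gtctgcctcatGTGCCAAAtcaggctttgc
The Nefl site is at chr14:68089058-68089065 (plus strand), base 1611 of a UTR of 1648 bases. The Nefm site is at chr14:68119498-68119504 (minus strand), base 533 of 754. The Ina site is at chr19:47025073-47025080 (plus strand), base 1423 of 1677, and its last 7 bases are also the shared match of miR-182.

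A site was no rare feature, since 33.7% of the 11198 tested genes with an annotated 3 prime UTR held one. The members with a site had the longest 3 prime UTRs of the 7 genes. Among tested genes with a UTR of like length (from 20% shorter to 25% longer), 40.9% held a site for Nefl, 20.6% for Nefm and 41.1% for Ina. The UTRs without a site were 591 bases long in Nefh, 421 in Nes, 312 in Vim and 307 in Prph, and 18.4%, 14.3%, 10.3% and 9.73% of genes of like length held one. A match is a description of the sequence and does not show that the microRNA acts there.

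The genes lie on 6 chromosomes. Nefl (chr14:68083863-68089095, 4 exons) and Nefm share chromosome 14, and their main transcripts are 30187 bases apart on opposite strands. The main transcript of Nefm (3 exons) runs from 68119283 to 68124846. A longer annotated Nefm transcript reaches into Nefl, with 1108 exon bases in common. The kit was stranded, but the sources used here do not say whether counting used strand, so reads from those bases cannot be told apart. The others are Nefh (chr11:4938754-4948064, minus strand, 4 exons), Prph (chr15:99055174-99058978, 8 exons), Ina (chr19:47014698-47025327, 3 exons), Nes (chr3:87971078-87980451, 4 exons) and Vim (chr2:13573927-13582826, 9 exons).

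Values are RPKM, reads scaled to transcript length and library size, a level per length that can be compared between genes. The libraries held an estimated 20.2 to 24.2 M reads. The deleted microRNA genes were listed at 0 in every library and so do not check the labels, since poly(A) libraries hold few microRNA precursors. By sex-linked genes miR-CKO 1 stood apart, with 96.0 RPKM of Xist, which coats an inactive X, against a highest value of 0.0890 RPKM among the other 5. The labels give no sex. The tissue label was borne out by sensory neuron genes: all 15 on the list, among them Isl1 (143 to 202 RPKM) and Pou4f1 (66.1 to 83.2 RPKM), were at 1 RPKM or more in every library. Spinal cord and motor neuron genes were almost absent, with Mnx1 at 0 in all libraries and a summed level of 10 genes of at most 3.67 RPKM in controls and 5.87 RPKM in miR-CKO. Muscle genes differed between libraries, with a summed level of 13 genes of 36.4, 235 and 172 RPKM in controls 1 to 3 and 34.3 to 50.8 RPKM in miR-CKO.

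None of the 7 filament genes differed between miR-CKO and control beyond the spread between libraries. All 7 passed the filter of 1 RPKM in at least 3 libraries, and the lowest value of any was 6.49 RPKM. The filter used no group label. Differences are on the log2(RPKM + 1) scale, miR-CKO minus control. By limma, a linear model fitted across 13118 genes with Benjamini-Hochberg adjustment, 0 of 7 passed a threshold of 0.05, with adjusted p = 1.00 for each. The background is small too, as 0.0610% of all genes tested passed, 0.0534% with the higher level in miR-CKO and 0.00762% with the lower. At an unadjusted p under 0.05 there were 0 of 7 as well, against 5.16% of all genes. The groups overlapped for all 7 genes, whereas they did not for 10.9% of all genes (4.63% higher and 6.24% lower in miR-CKO). Of the 7 log2 differences 3 were above 0 and 4 below, with a median of -0.030, and over all genes the median was -0.024.

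**Figure D1:**
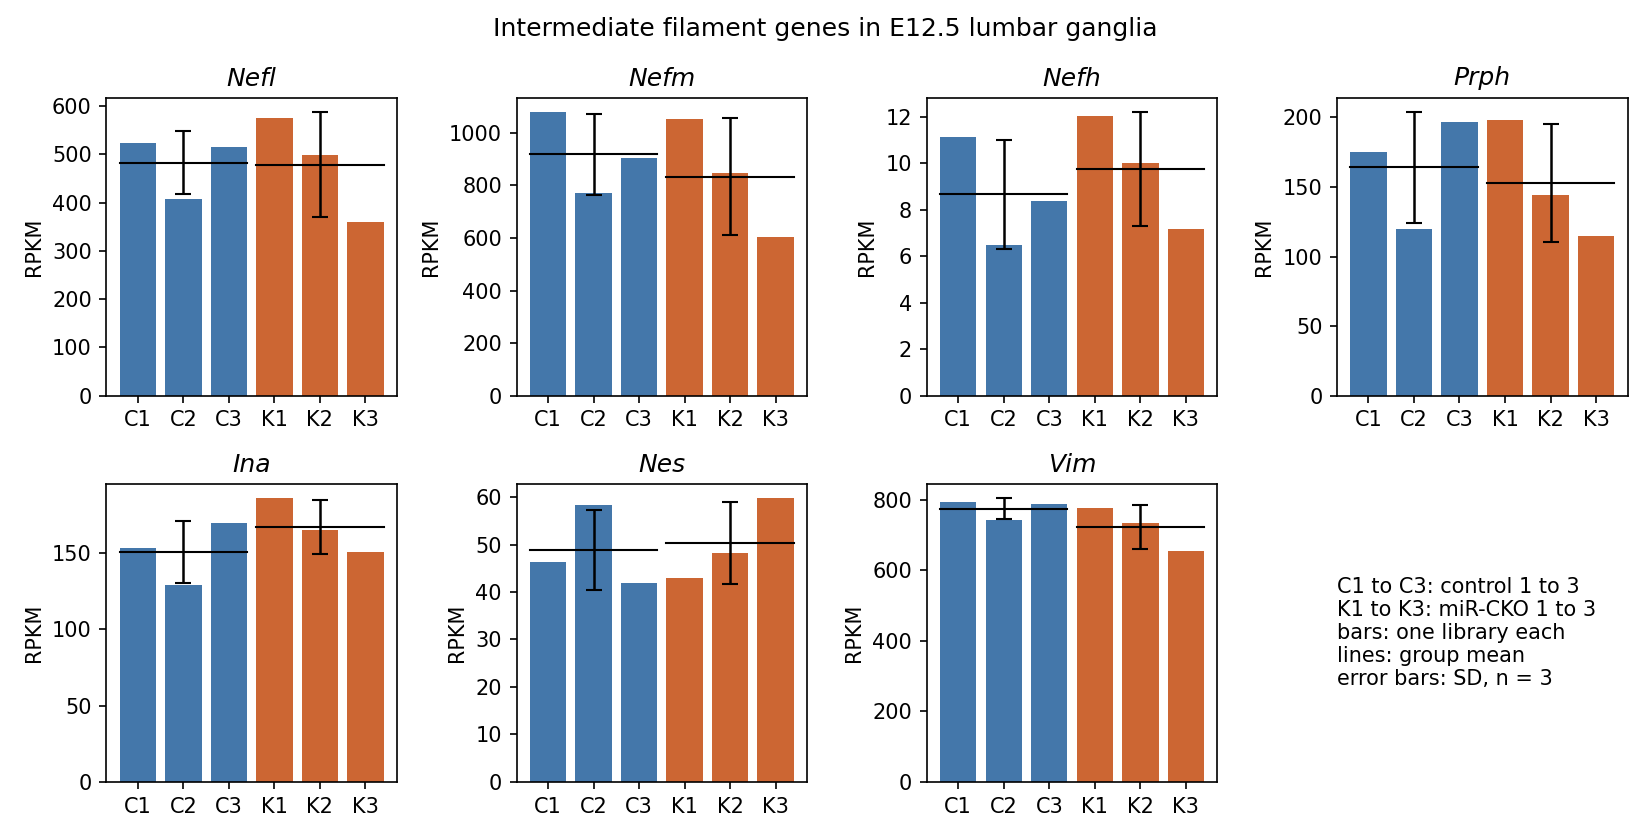
RPKM of each filament gene (y axis, from 0) in the 3 control (C1 to C3, blue) and 3 miR-CKO (K1 to K3, orange) libraries, with group means as lines and SD as error bars (n = 3). The groups overlap in every panel, and Nefl, Nefm, Nefh, Prph and Ina are low in C2 and K3, where Nes is high.

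Nefm, the medium neurofilament chain, was the most abundant message of the family. It measured 1079, 771 and 904 RPKM across controls 1 to 3, against 1051, 846 and 604 RPKM across miR-CKO 1 to 3. The highest values were those of control 1 and miR-CKO 1, and the lowest those of miR-CKO 3 and control 2, so each group held both ends of the range. Means were 918 ± 154 and 834 ± 224 RPKM (SD, n = 3 per group), which gave a log2 difference of -0.16 (SE 0.22, 95% interval -0.68 to 0.35, two-sided exact permutation p = 0.6, smallest possible 0.1). It was 0.052 without miR-CKO 3 and -0.35 without miR-CKO 1. This is the message with the 7mer of miR-182 printed above.

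Nefl, the light chain on which neurofilaments are built, measured 524, 407 and 516 RPKM across controls 1 to 3, against 576, 499 and 361 RPKM across miR-CKO 1 to 3. Here miR-CKO held both the highest and the lowest library. The group means of 483 ± 65.3 and 479 ± 109 RPKM (SD, n = 3 per group) gave a log2 difference of -0.030 (SE 0.19, 95% interval -0.47 to 0.41, two-sided exact permutation p = 0.8). The interval corresponds to a ratio of miR-CKO to control between 0.72 and 1.33. The sign rested on single libraries, with 0.16 without miR-CKO 3, 0.035 without control 1, 0.023 without control 3 and -0.18 without miR-CKO 1. This is the message with the 8mer of miR-183.

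Nefh, the heavy chain that is added to neurofilaments late, was the least abundant member. Its level came to 11.1, 6.49 and 8.39 RPKM across controls 1 to 3, against 12.1, 10.02 and 7.16 RPKM across miR-CKO 1 to 3. The order of libraries was again mixed between groups, with control 2 and miR-CKO 3 at the bottom. Its log2 difference of 0.15 (SE 0.22, 95% interval -0.38 to 0.69, two-sided exact permutation p = 0.7) depended on single libraries. It was 0.34 without miR-CKO 3, 0.33 without control 1, -0.017 without control 2, -0.00015 without miR-CKO 1 and -0.20 with controls 2 and 3 left out, a fit with 1 control library that is taken to vary like the others.

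Ina, the alpha-internexin that neurons make before the triplet, measured 153, 129 and 170 RPKM across controls 1 to 3, against 186, 165 and 150 RPKM across miR-CKO 1 to 3. The highest value belonged to miR-CKO 1 and the lowest to control 2, and the ranges overlapped between 150 and 170 RPKM. Means were 151 ± 20.4 and 167 ± 17.7 RPKM (SD, n = 3 per group), which gave a log2 difference of 0.15 (SE 0.12, 95% interval -0.14 to 0.44, limma unadjusted p = 0.257, two-sided exact permutation p = 0.5). With any library left out the difference stayed above 0, between 0.047 without control 2 and 0.24 without control 3, and no such fit passed the threshold. The printed miR-96 8mer lies in this message.

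Prph, or peripherin, measured 175, 120 and 197 RPKM across controls 1 to 3, against 198, 144 and 115 RPKM across miR-CKO 1 to 3. Its library values differed up to 1.73-fold while the group means of 164 ± 39.7 and 153 ± 42.3 RPKM (SD, n = 3 per group) gave a log2 difference of -0.11 (SE 0.24, 95% interval -0.69 to 0.47, two-sided exact permutation p = 0.8). It was -0.32 without control 2 or without miR-CKO 1, 0.037 without control 3 and 0.076 without miR-CKO 3.

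Sympathetic neurons, which also make peripherin, were sought by 9 marker genes. Their summed level came to 38.1, 21.2 and 50.9 RPKM across controls 1 to 3, against 45.3, 24.9 and 25.3 RPKM across miR-CKO 1 to 3, high in the 3 libraries where Prph was high. Nearly all of it came from Th (8.57 to 36.9 RPKM) and Chrna3 (10.2 to 14.3 RPKM), and 2 or 3 of the 9 genes reached 1 RPKM in a library. Th was high in those 3 libraries, while Chrna3 was highest in miR-CKO 3, where Prph was lowest. Dbh, the noradrenaline-making enzyme, was at or near 0, at no more than 0.158 RPKM. The part of sympathetic neurons in the Prph level was not tested.

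Vim, the vimentin of progenitors, glia and mesenchyme, was the steadiest member. It measured 795, 742 and 789 RPKM across controls 1 to 3, against 778, 734 and 654 RPKM across miR-CKO 1 to 3. Only miR-CKO 2 and 3 lay below the whole control range. Means were 775 ± 28.8 and 722 ± 62.7 RPKM (SD, n = 3 per group), which gave a log2 difference of -0.11 (SE 0.091, 95% interval -0.32 to 0.11, two-sided exact permutation p = 0.2). The difference kept its sign with each library left out, from -0.16 without miR-CKO 1 to -0.037 without miR-CKO 3. Mesenchyme genes, whose cells also make vimentin, had a median log2 difference of -0.36 with 17 of 17 tested members below 0 and none past the threshold, beside a median of -0.024 over all genes. The summed level of the 18 listed genes came to 336, 485 and 544 RPKM across controls 1 to 3, against 307, 374 and 386 RPKM across miR-CKO 1 to 3, and 13 to 18 of them reached 1 RPKM in a library. Vim was as high in control 1, where that sum was lowest among controls, as in control 3, where it was highest, and the part of mesenchyme in the Vim values was not tested.

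Nes, the nestin of dividing progenitors, ran against the neuronal members. It measured 46.4, 58.3 and 42.0 RPKM across controls 1 to 3, against 42.9, 48.3 and 59.7 RPKM across miR-CKO 1 to 3. The highest libraries were miR-CKO 3 and control 2, those where the neuronal filaments were lowest. Group means of 48.9 ± 8.43 and 50.3 ± 8.58 RPKM (SD, n = 3 per group) gave a log2 difference of 0.041 (SE 0.16, 95% interval -0.33 to 0.41, two-sided exact permutation p = 0.7). It was 0.17 without control 2, 0.15 without miR-CKO 1, -0.060 without control 3 and -0.087 without miR-CKO 3. Hes5, a Notch target of undifferentiated cells that, like Des and Gfap, was picked for mention with its values known, was also highest in those libraries, at 10.2 RPKM in control 2 and 13.0 RPKM in miR-CKO 3 against 4.26 to 7.84 RPKM in the others. It was 1 of 3 among 15 genes of progenitors and glia with this order, and 5 of the 15 had their 2 lowest values there.

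**Figure D2:**
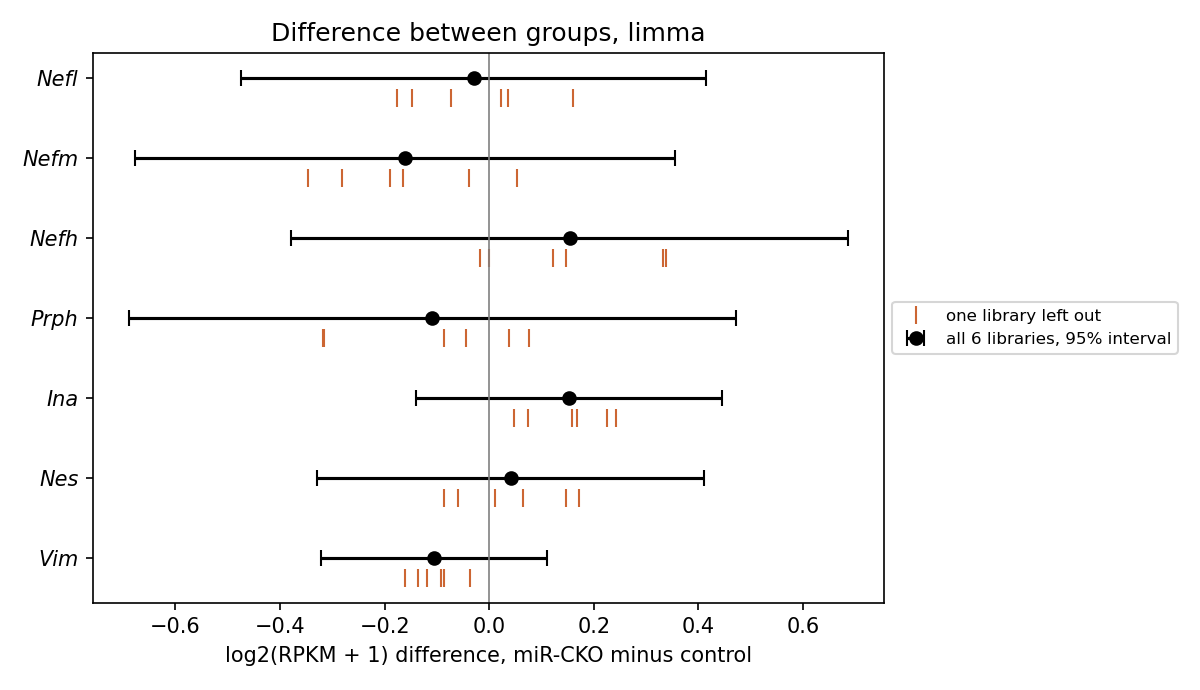
Log2 difference of each filament gene between miR-CKO and control on the log2(RPKM + 1) scale (x axis), with limma's 95% interval over all 6 libraries (black) and the values with 1 library left out (orange ticks). Every interval holds 0, and only Ina and Vim keep their sign in all 6 leave-out fits.

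The order of levels was the same in most libraries. By the mean of all 6, the order was Nefm (876 RPKM), Vim (749), Nefl (481), Ina (159), Prph (158), Nes (49.6) and Nefh (9.21). Nefm exceeded Vim in 5 of 6 libraries, the exception being miR-CKO 3. Ina and Prph could not be ordered, as each was higher in 3 of 6. The other neighbours kept their order in 6 of 6. Among the 13118 tested genes by mean level, Nefm ranked 41, Vim 50, Nefl 87, Ina 297, Prph 299, Nes 1322 and Nefh 7237. Light and medium chains were thus among the most abundant messages of these ganglia while the heavy chain was below the middle of the list.

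For every gene but Vim, the range of libraries within each group was wider than the gap between the group means. For Nefl, Nefm, Nefh, Prph and Ina, control 2 and miR-CKO 3 were the 2 lowest libraries of 6, and for Nes they were the 2 highest. Over all tested genes these libraries were the 2 lowest for 9.43% and the 2 highest for 15.0%. They were the 2 lowest for 9 of 15 sensory neuron genes, 12 of 16 neuronal microtubule genes and 6 of 11 transport motor genes, but for 5 of 15 genes of progenitors and glia and 0 of 11 endothelial genes. The pattern was noticed in the values and is given as a description. Control 2 was also the control titled WT, so among controls library and genotype cannot be told apart. In bulk samples such as these, fewer neurons and less message per neuron cannot be told apart.

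**Figure D3:**
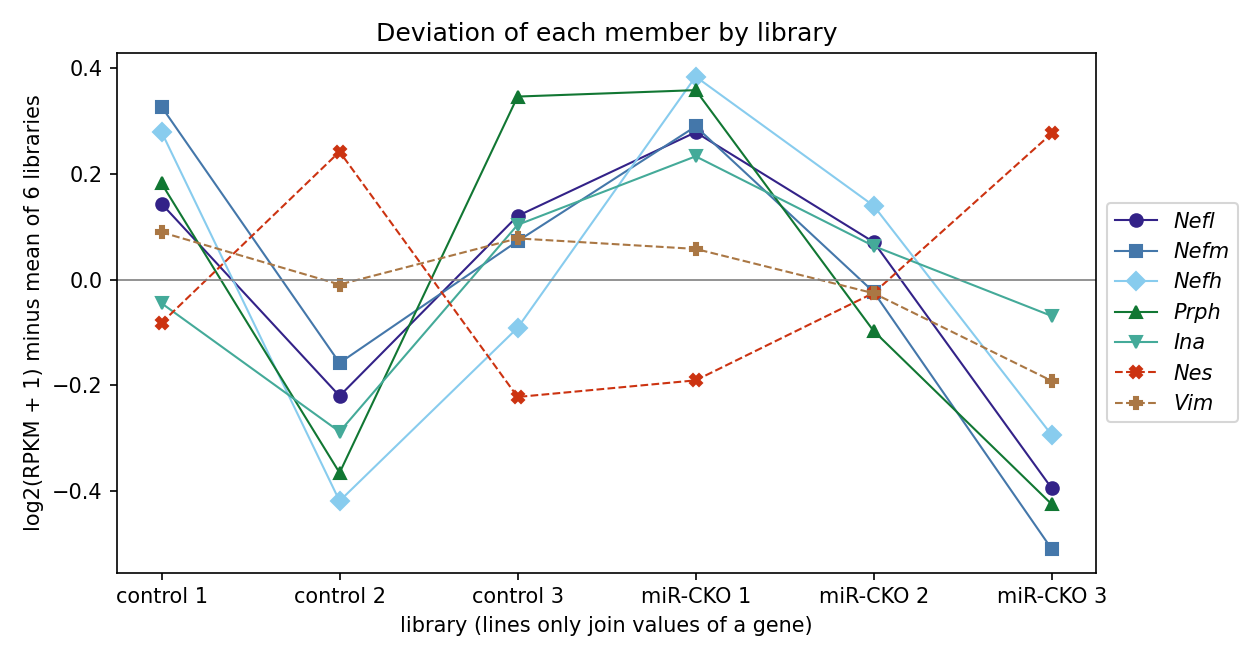
Deviation of each filament gene from its own mean over 6 libraries, in log2(RPKM + 1) (y axis), by library (x axis). The 5 neuronal genes (solid lines) dip in control 2 and miR-CKO 3, where Nes (dashed) is 0.24 and 0.28 above its mean, and Vim (dashed) stays between -0.19 and 0.090.

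Spread over libraries differed between the members. The highest library exceeded the lowest 1.86-fold for Nefh, 1.79-fold for Nefm, 1.73-fold for Prph, 1.60-fold for Nefl, 1.44-fold for Ina, 1.42-fold for Nes and 1.22-fold for Vim. Counting error was a small part of this. An estimated 595 to 1081 reads stood behind each Nefh value, a counting error of at most 4.10%, and at least 4453 reads behind each value of the other 6 genes, with errors of 1.5% or less. With control 2 and miR-CKO 3 both left out, a comparison chosen after seeing the data, the log2 differences were 0.043 for Nefl, -0.067 for Nefm, 0.17 for Nefh, -0.13 for Prph, 0.12 for Ina, 0.044 for Nes and -0.068 for Vim. None of these passed the threshold (limma). Without control 2 alone, both controls left were titled Wnt-Cre. The log2 differences were then -0.15 for Nefl, -0.28 for Nefm, -0.017 for Nefh and -0.32 for Prph. For Ina, Nes and Vim they were 0.047, 0.17 and -0.14, and no member passed the threshold there either.

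Ratios between members remove any scale shared by a library. The summed level of the 5 neuronal messages came to 1943, 1433 and 1795 RPKM across controls 1 to 3, against 2023, 1664 and 1237 RPKM across miR-CKO 1 to 3. Within this pool Nefm made up 53.2% ± 2.62 in controls and 50.5% ± 1.60 in miR-CKO, and Nefl 28.1% ± 0.931 and 29.2% ± 0.75. Prph made up 9.45% ± 1.35 and 9.26% ± 0.564, Ina 8.78% ± 0.812 and 10.4% ± 1.55, and Nefh 0.498% ± 0.0660 and 0.592% ± 0.0120 (SD, n = 3 each throughout). Although the pool itself varied 1.64-fold, the share of Nefl ranged from 27.0% to 30.0% and that of Nefm from 48.8% to 55.5%. The smaller shares varied more, from 7.87% to 12.2% for Ina, 8.35% to 10.96% for Prph and 0.452% to 0.602% for Nefh. The Nefh shares were 0.573%, 0.452% and 0.468% in controls 1 to 3 and 0.596%, 0.602% and 0.579% in miR-CKO 1 to 3. The groups did not overlap for Nefh, as for 10.9% of single genes, and overlapped for the other shares. Taken over all 7 messages, the Nefh shares overlapped and those of Ina did not. No shares of other genes were computed, and nothing is read from these.

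**Figure D4:**
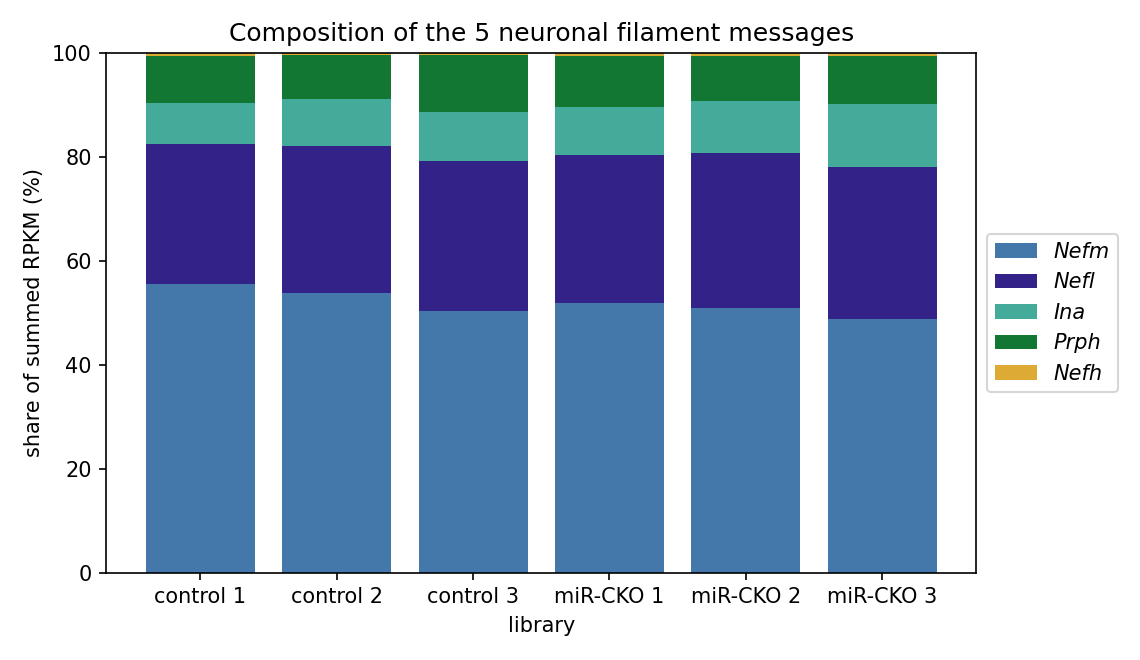
Share of each of the 5 neuronal filament messages in their summed RPKM (y axis, percent) in each library (x axis). Nefm takes 48.8% to 55.5% and Nefl 27.0% to 30.0% in every library, and Nefh is the thin layer at the top, at most 0.602%.

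Of 21 pairwise ratios among the 7 genes, 2 did not overlap between groups, a share no higher than the 10.9% of single genes, and no share over ratios of other genes was computed. The ratios share members, and they are given as values with nothing read from them. The log2 ratio of Nefm to Nefh was 6.60, 6.89 and 6.75 in controls 1 to 3 and 6.45, 6.40 and 6.40 in miR-CKO 1 to 3. The log2 ratio of Ina to Vim was -2.38, -2.52 and -2.22 in controls 1 to 3 and -2.07, -2.15 and -2.12 in miR-CKO 1 to 3. The level of Nefl was 0.486 to 0.598 times that of Nefm, and the groups overlapped.

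Against other neuronal genes the filament pool was compared by sums. The 5 filament messages summed to 1.11, 1.01 and 1.00 times the 15 sensory neuron genes in controls 1 to 3 and to 0.981, 0.955 and 0.882 times in miR-CKO 1 to 3, without overlap of the groups. This rested on 1 gene of the list. Gap43, a growth cone protein and its most abundant gene, was at 429, 314 and 429 RPKM in controls and at 621, 521 and 402 RPKM in miR-CKO (log2 difference 0.39, limma adjusted p = 1.00). With Gap43 left out, a choice made after seeing the data, the ratios were 1.47, 1.29 and 1.31 in controls and 1.403, 1.36 and 1.24 in miR-CKO, and the groups overlapped. Set against the 16 microtubule genes, the pool was at 0.175, 0.150 and 0.168 in controls and 0.169, 0.156 and 0.129 in miR-CKO, where the groups overlapped.

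Genes that build, move or modify filaments were followed through lists. Each list had 0 members past the threshold in either direction (limma, adjusted over all genes). Counts above 0 are to be read beside the 40.4% of all tested genes above 0. The median of each list below took both signs as single libraries were left out, except for progenitors and glia, mesenchyme and muscle. Of 16 other intermediate filament genes 5 were tested, with 1 above 0 and a median log2 difference of -0.054. Lmnb1, the B1 lamin of the nuclear envelope, was high where Nes was high, at 111 RPKM in control 2 and 117 RPKM in miR-CKO 3 against 82.0 to 103 RPKM elsewhere. Synm, or synemin, which joins vimentin-type filaments, was at 20.2 to 31.1 RPKM with its lowest values in those libraries, and Lmnb2 and Lmna were at 12.3 to 17.3 and 2.34 to 4.91 RPKM. Gfap, the filament of mature glia, reached at most 0.0841 RPKM. Des, the muscle filament desmin, was at 3.46 and 4.25 RPKM in controls 2 and 3 and at 0.824 RPKM or less in the others, which are the libraries where the muscle genes were high and low. The part of muscle cells in its level was not tested.

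Linkers and turnover factors, the proteins that tie filaments to other structures or remove them, had 2 of 9 tested genes above 0 and a median of -0.043. Trim2, a ubiquitin ligase of the light chain, had a log2 difference of -0.14, and Dst, or dystonin, which links filaments to the rest of the cytoskeleton in sensory neurons, of -0.030. Myo5a, a myosin that moves cargo, was at -0.00094 and Mtmr2, a lipid phosphatase, at -0.046. Transport motors had 6 of 11 above 0 and a median of 0.018. Klc1, a kinesin light chain, was at 0.093, Kif5c, a kinesin heavy chain, at -0.0094, the dynein chain Dync1i2 at -0.042 and the dynactin subunit Dctn1 at -0.16.

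Kinases and phosphatases that act on neurofilament tails had 8 of 17 above 0, a median of -0.0061 and 2 at an unadjusted p under 0.05, beside 5.16% of all genes. These were the catalytic subunits of protein phosphatase 2A. Ppp2ca measured 190, 184 and 177 RPKM across controls 1 to 3, against 210, 210 and 215 RPKM across miR-CKO 1 to 3, a log2 difference of 0.20 (limma adjusted p = 0.731). Ppp2cb was at 56.4, 58.7 and 55.3 RPKM and at 62.8, 63.4 and 67.9 RPKM, a log2 difference of 0.18 (limma adjusted p = 0.774). The groups were apart for both genes, as for 4.63% of all genes in that direction, and neither passed over all genes. Rock1, a kinase that acts on the cytoskeleton and also picked with its values known, was apart in the other direction, at 14.5, 13.9 and 13.9 RPKM in controls and 12.41, 12.46 and 13.56 RPKM in miR-CKO (log2 difference -0.13, limma adjusted p = 1.00), as were 6.24% of all genes. Prkaca, a catalytic subunit of protein kinase A, and Mapk8ip1, a scaffold of stress kinases, had log2 differences of 0.059 and -0.16.

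Neuronal microtubule genes, the other axonal polymer, had 11 of 16 above 0 and a median of 0.016. Tuba1a, Tubb2b and Tubb3, tubulins of young neurons, had log2 differences of 0.026, 0.033 and -0.0092, and the tubulin-binding Stmn1 of 0.0045. Map2, the microtubule-associated protein of dendrites, was named after its values were seen. It was the only gene of the 16 at an unadjusted p under 0.05 (limma), beside 5.16% of all genes. It measured 56.4, 43.4 and 53.7 RPKM across controls 1 to 3, against 74.0, 60.4 and 84.5 RPKM across miR-CKO 1 to 3 (log2 difference 0.50, limma adjusted p = 0.677). Sensory neuron genes had 6 of 15 above 0 and a median of -0.031, with Gap43 at 0.39 and Uchl1, Isl1 and Elavl4 at -0.042, -0.066 and 0.12. Genes of progenitors and glia had 8 of 15 above 0 and a median of 0.022, with the glial genes Fabp7, Ednrb and Sox10 at -0.058, -0.0024 and -0.019.

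Other cells of the ganglia were followed in the same way, and none of their genes passed the threshold. Muscle genes had 10 of 10 tested members below 0, with a median log2 difference of -1.65. At an unadjusted p under 0.05 (limma) there were 2 of the 10, beside 5.16% of all genes. Acta1, Actc1, Mylpf and Tnnt1, of the contractile apparatus, were at -0.32, -2.41, -1.5 and -1.64, and the list median was -0.85 without control 2 and -2.52 without control 1. Mesenchyme collagens Col3a1, Col1a2 and Col1a1 were at -0.41, -0.31 and -0.44, and Postn, or periostin, at -0.032. Endothelial genes had 9 of 11 above 0, with the vessel genes Cdh5, Emcn, Pecam1 and Kdr at 0.044, 0.047, 0.14 and 0.045. Macrophage genes had 4 of 8 above 0, with Mrc1, Csf1r, C1qb and C1qa at -0.027, -0.085, -0.12 and 0.040. Red cell genes had 6 of 7 above 0 and a median of 0.22, which was -0.37 without control 3. Hbb-y, the embryonic globin with the highest level, ranged from 1467 to 8405 RPKM between libraries. The part of these cells in the filament levels was not tested.

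The genes most like a filament gene over the 6 libraries were found by the root mean square difference of their log2 deviations, members aside. For Nefl they were Ahr, the aryl hydrocarbon receptor (0.035), 1810041L15Rik (0.036) and Trpv2, a cation channel of sensory neurons (0.043). Trpv2 measured 13.6, 10.9 and 12.7 RPKM across controls 1 to 3, against 15.0, 13.0 and 9.42 RPKM across miR-CKO 1 to 3. For Prph they were Syn2, a synapsin (0.048), Matn2, a matrilin (0.052), and Mgll, a lipase that breaks down an endocannabinoid (0.053). For Vim they were Tbcd, a tubulin folding cofactor (0.017), Nipsnap1 (0.018) and Dctn2, a dynactin subunit (0.019). Within the family Nefl was nearest to Nefm (0.10) and farthest from Nes (0.42). With 13118 genes and 6 libraries, close matches are easy to find, so these names describe the libraries only.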

How the data were processed

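RNA was extracted with Trizol from dissected ganglia and made into stranded poly(A) libraries, per the labels' protocols. Per the submitters' processing notes, the aligner was Bowtie and the build mm10. For the counting tool and annotation, nothing is stated in the labels. The authors deposited 1 table of 24264 genes by 6 libraries with no unit in its header. Its values were read as RPKM because longer transcripts had smaller steps between values (rho -0.925 by Spearman over 1734 genes, which are not independent). RPKM and FPKM cannot be told apart. No column was left unused. Depth and read numbers were estimated from these steps and transcript lengths.

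Values were transformed to log2(RPKM + 1), which understates changes of low genes, and kept at 1 RPKM in at least 3 libraries. The group test was limma 3.58.1 under R 4.3.3 with trend and robust settings and Benjamini-Hochberg adjustment over 13118 genes. A run on simulated data drew noise separately for each gene. It therefore does not cover noise that the genes of a library share. Within groups, every pair of libraries was further apart than sampling of reads gives (chi-square per gene 8.51 to 20.1). No library was thus a second reading of another. The comparison cannot show that libraries came from separate embryos. Older symbols were matched through RefSeq synonyms. All members were named, with the 4 most abundant genes of each other list and the 3 genes most like Nefl, Prph and Vim. Some genes that this rule names are not reported here. Members and lists were chosen with earlier results of these data known. The planned protein comparison was not run. Alternatives covered the pseudocount, filter, scaling, trend, weights, a replicate block and left-out libraries. Python 3.11.15, pandas 2.3.3 and matplotlib 3.10.9 were used.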

Additional observations from a re-analysis of the deposited data

How the results depend on the processing

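No member passed the limma threshold in any of 18 alternatives (smallest adjusted p 0.658). The estimate cannot move in 4 of these (both other filters, no trend and the replicate block), and in the others signs held in 85 of 98 member values. Nefl turned to 0.00015 with median centring and to 0.043 with control 2 and miR-CKO 3 left out, and Nefh to -0.20 with controls 2 and 3 left out, where 1 control library is taken to vary like the others. With 1 library left out the log2 change ranged from -0.18 to 0.16 for Nefl, -0.35 to 0.052 for Nefm, -0.017 to 0.34 for Nefh, -0.32 to 0.076 for Prph, 0.047 to 0.24 for Ina, -0.087 to 0.17 for Nes and -0.16 to -0.037 for Vim. The sign of Nefl, Nefm, Nefh, Prph and Nes thus rested on single libraries, and the cause was not tested.

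Over all genes limma called 7 higher and 1 lower. It called 0 and 0 after scaling to the upper quartile, after scaling that left out haemoglobin and mitochondrial genes, with no trend, the replicate block, controls 2 and 3 left out, or control 2 and miR-CKO 3 left out, and 395 to 847 genes had an unadjusted p under 0.05 there. Median centring gave 2 and 0, array weights 29 and 5, and no filter 6 and 3. With 1 library left out it called 0 to 2 higher and 0 to 1 lower, and 440 to 1023 genes had an unadjusted p under 0.05. The replicate block used numbers that need not pair the libraries: same-numbered deviations correlated at 0.36, 0.33 and -0.22, and not every library correlated best with its own number. In a balanced design the block cannot move a difference, only its error, and no member passed under it (Nefm -0.16, SE 0.15 in place of 0.22). As shares of all 7 messages, Nefm made up 35.0%, Nefl 19.3%, Ina 6.45%, Prph 6.32% and Nefh 0.368%, since Vim and Nes enter the sum, in place of 51.9%, 28.6%, 9.60%, 9.35% and 0.545%. With 3 libraries a group, intervals of members reached from 0.62-fold to 1.61-fold, which limits what could be seen.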
